A study of Homo sapiens with 6 samples.

Results

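The 42 genes described here are targets of the transcription factor p53 and genes of the apoptosis machinery. They were taken by symbol, and no measured value entered the rule. All 42 have a row among the 60483 gene rows of the count table, and 38 of them passed the filter on low counts, as did 17925 genes in all. RNA-seq was performed on HAP1 (C631) cells, a near-haploid line derived from chronic myelogenous leukemia, and on a HELLS KO clone of that line, with 3 libraries per genotype. The HELLS KO line is 1 commercial clone that carries a single base insertion in exon 3 of HELLS, which encodes a chromatin remodeler of the SNF2 family, so each difference below is between 1 clone and its parental line. Both genotypes were grown under normal conditions, no damaging agent was added, and replicate 3 of each genotype carries a batch label that replicates 1 and 2 lack. The comparison asks whether loss of HELLS by itself raises a damage response in this line. It reads only the RNA of these genes, and whether they respond to damage in this line was not tested.

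In unstressed cells p53 is kept low by MDM2, a ubiquitin ligase that marks p53 for degradation, and is restrained by its relative MDM4. DNA damage activates the kinases ATM, ATR and CHEK2, p53 is released, and it raises genes that halt the cell cycle (CDKN1A, which encodes p21), that limit oxidative stress and support repair (SESN1, SESN2, RRM2B), or that start cell death through the BCL2 family (BAX, BBC3, PMAIP1) and death receptors (FAS, TNFRSF10B). Several targets close the loop again, among them MDM2 itself and the phosphatase PPM1D.

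p53 binds DNA at a consensus of 2 adjacent half-sites. This consensus was searched with no spacer and with at most 2 mismatches outside its core, within 5000 bases of the start of each gene's canonical transcript in GRCh38. It reads the same on both strands, so 1 scan covers both. Of the 42 members, 18 (42.9%) held at least 1 match, against 1533 of 20033 protein-coding genes (7.65%) in windows of the same length. With at most 1 mismatch the counts were 6 members (14.3%) and 216 genes (1.08%). The members were chosen as p53 targets and apoptosis genes, so these shares are a description and not a test. Shown are matches of members used as readouts of p53, of SFN and GADD45B, which had the most negative differences, and of PLK2, which had 0 mismatches, given 5′ to 3′ on the strand of the gene, with the core C and G of each half-site in capitals:
CDKN1A: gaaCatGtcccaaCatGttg
MDM2: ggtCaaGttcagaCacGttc
GADD45A: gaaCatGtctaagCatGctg
BAX: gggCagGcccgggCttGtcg
PMAIP1: gggCttGtttaccCaaGtct
FAS: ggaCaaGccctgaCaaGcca
BTG2: acgCatGttcaggCatGcat
ZMAT3: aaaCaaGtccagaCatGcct
PLK2: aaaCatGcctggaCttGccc
SFN: aggCatGcaccagCatGtcc
GADD45B: agaCttGgttgaaCttGgtt

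The CDKN1A match lies at chr6:36676449-36676468, upstream of the canonical start on the + strand, and the BTG2 match lies at chr1:203303642-203303661, also upstream on the + strand. The upstream match of PMAIP1 is at chr18:59899549-59899568 (+ strand) and that of PLK2 at chr5:58462274-58462293 (- strand). Matches in introns were those of MDM2 at chr12:68808923-68808942, GADD45A at chr1:67686775-67686794, BAX at chr19:48955213-48955232, FAS at chr10:88991309-88991328 (all + strand) and ZMAT3 at chr3:179070188-179070207 (- strand). In GADD45B the match at chr19:2478021-2478040 is in an untranslated part of an exon, and that of SFN at chr1:26867106-26867125 is downstream of the gene, both on the + strand. ZMAT3 and PLK2 had 0 mismatches and GADD45A 1. Members with a match that is not printed, the readout TNFRSF10B among them, were AEN, BIK, CCNG1, EDA2R, RRM2B, SPATA18 and TNFRSF10B. A match describes the letters of the window and is not evidence of binding in these cells.

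The libraries held 13641237 to 24400187 counts, with the replicate 3 libraries the deepest, and 3 counts, the limit that a count of 0 allows, correspond to 0.123 to 0.218 CPM (counts scaled to library depth with TMM). These limits cover counting error only. HELLS RNA stood at 101.6, 108.2 and 153.0 CPM in HAP1 replicates 1, 2 and 3 and at 96.9, 96.3 and 115.1 CPM in HELLS KO, a log2 difference of -0.24 (SE 0.18, adjusted p = 1, edgeR), so the RNA level does not check the KO label. The cell type is labelled chronic myelogenous leukemia. Of the haematopoietic markers, PTPRC, SPI1 and MPO ranged from 0 to 2 counts over the libraries, GATA1 from 0 to 5, CD34 from 2 to 10 and CD33 from 2 to 19. KIT, a growth factor receptor of blood progenitors, had a log2 fold change of -2.90 in HELLS KO (SE 0.43, adjusted p = 0.0153, edgeR), and the epithelial adhesion gene EPCAM one of -4.88 (SE 0.39, adjusted p = 0.00148, edgeR). The call on KIT did not hold when HELLS KO replicate 1 was left out (log2 -2.65, adjusted p = 0.0693), when HELLS KO replicate 2 was (-2.76, adjusted p = 0.111), or when each library had to hold 10 counts (-2.89, adjusted p = 0.0534, all edgeR). Of the fibroblast markers LUM and DCN had 0 counts, COL1A2 had 0 to 8, COL3A1 2 to 33 and PDGFRB 12 to 32. THY1 had 34 to 75 counts and COL1A1 600 to 1103. Of these markers 0 were called, with COL1A1 at a log2 difference of -0.58 (SE 0.30, adjusted p = 1, edgeR). Of the other epithelial markers KRT5 and KRT7 had 0 counts, KRT14 0 to 4, CDH1 0 to 6, KRT19 4 to 14 and ESR1 6 to 30. In bulk RNA, fewer cells that express a gene and less of its RNA per cell cannot be told apart.

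The members spanned a wide range of levels in untreated HAP1 cells. FPKM, which divides fragments by gene length and library depth, was used to order them because levels of different genes can be set beside each other only per length. Of the 42 members, 25 had a mean of at least 10 FPKM in HAP1, 13 had 1 to 10 FPKM, and 4 were under 1 FPKM or had no FPKM. The median of the 38 tested members was 12.2 FPKM, beside 7.37 FPKM for all genes tested. CCNG1, which encodes the cyclin G1 partner of a phosphatase that acts on MDM2, ranked first at 51.6, 51.8 and 46.2 FPKM in HAP1 replicates 1, 2 and 3 and at 47.0, 48.1 and 43.7 FPKM in HELLS KO. MCL1, an anti-apoptotic BCL2 family member, followed at 44.3, 41.5 and 43.98 FPKM in HAP1 and 39.5, 43.5 and 42.04 FPKM in HELLS KO. TRIAP1, a small p53-induced protein that restrains the apoptosome, had 40.9, 41.3 and 40.8 FPKM in HAP1 and 44.8, 40.8 and 39.4 FPKM in HELLS KO. The top of the order thus held a cell cycle gene and survival genes, and the nuclease gene AEN came next at 39.2 ± 4.28 FPKM in HAP1 (SD, n = 3).

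The effector BAX, which opens the mitochondrial membrane, was at 32.3 ± 6.55 FPKM in HAP1 and 32.5 ± 7.81 FPKM in HELLS KO (SD, n = 3), and the antiproliferative gene BTG2 at 30.1 ± 4.12 and 32.5 ± 3.13 FPKM. Far lower in the order were MDM2, at 7.19 ± 1.61 and 7.52 ± 1.09 FPKM, and CDKN1A, at 5.70 ± 1.62 and 7.40 ± 2.03 FPKM. At the low end of the tested members stood ZMAT3, which encodes an RNA-binding protein, at 3.58 FPKM in HAP1, SFN, which encodes 14-3-3 sigma, at 2.97 FPKM, the death receptor gene FAS at 2.36 FPKM and the CDK inhibitor gene CDKN2B at 1.71 FPKM. Neighbours in the order were not well separated: in 35 of 37 neighbouring pairs the HAP1 libraries overlapped. The order was much the same in HELLS KO, with a median change of 0.75 places and a largest change of 6.5 places, that of GADD45B from 13 to 19.5. The FPKM of RPS27L is low, at 5.96 ± 0.207 in HAP1, beside a length of 9127 bases implied by the ratio of counts to FPKM. That length is the longest of any member with an FPKM except ZMAT3, MDM2 and MDM4.

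Among the members, 4 had 0 to 20 counts a library, did not pass the filter on low counts and were not tested. TP53INP1, which encodes a stress-induced partner of p53 in the nucleus, had 2, 6 and 16 counts in HAP1 replicates 1, 2 and 3 and 20, 8 and 14 in HELLS KO. For EDA2R, a receptor of the tumour necrosis factor receptor family, the HAP1 libraries gave 0, 0 and 8 counts and the HELLS KO libraries 0, 2 and 10. The mitochondrial quality control gene SPATA18 was counted 0, 2 and 7 times in HAP1, against 0, 0 and 2 in HELLS KO. TP53AIP1, a mitochondrial apoptosis gene, was counted 0, 2 and 0 times in HAP1, against 0, 0 and 2 in HELLS KO. The ranges of the genotypes overlapped for all 4, and no difference is given for them at these low counts.

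Loss of HELLS was not accompanied by a called change in any tested member. Of the 38, 0 were called higher and 0 lower by edgeR, with the limits set at 0.05 for the adjusted p and 1 for the size of the log2 fold change, where 1.50% of all genes tested were called higher and 0.720% lower. DESeq2 also called 0, as did each of the other alternatives. At an unadjusted p under 0.05, edgeR passed 0 members against 6.59% of all genes. The adjusted p was 0.902 for SFN, 0.946 for FAS and 1 for the other 36. The log2 fold changes of HELLS KO over HAP1 had a median of 0.02, beside 0.01 over all genes tested, with 23 positive and 15 negative, and ran from -1.03 for SFN to 0.48 for FAS.

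The intervals bound what these libraries could have missed. In 36 of the 38 members the upper end of the 95% interval was under a log2 fold change of 1, that is, under a 2-fold rise, as it was in 80.5% of all genes tested. The exceptions were CDKN1A with an upper end of 1.06 and FAS with 1.02. In 24 members the upper end was also under 0.585, the log2 of a 1.5-fold rise. On the other side, the lower end was above -1 in 35 members, with GADD45B (-1.35), BBC3 (-1.63) and SFN (-2.17) as the exceptions.

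**Figure D1:**
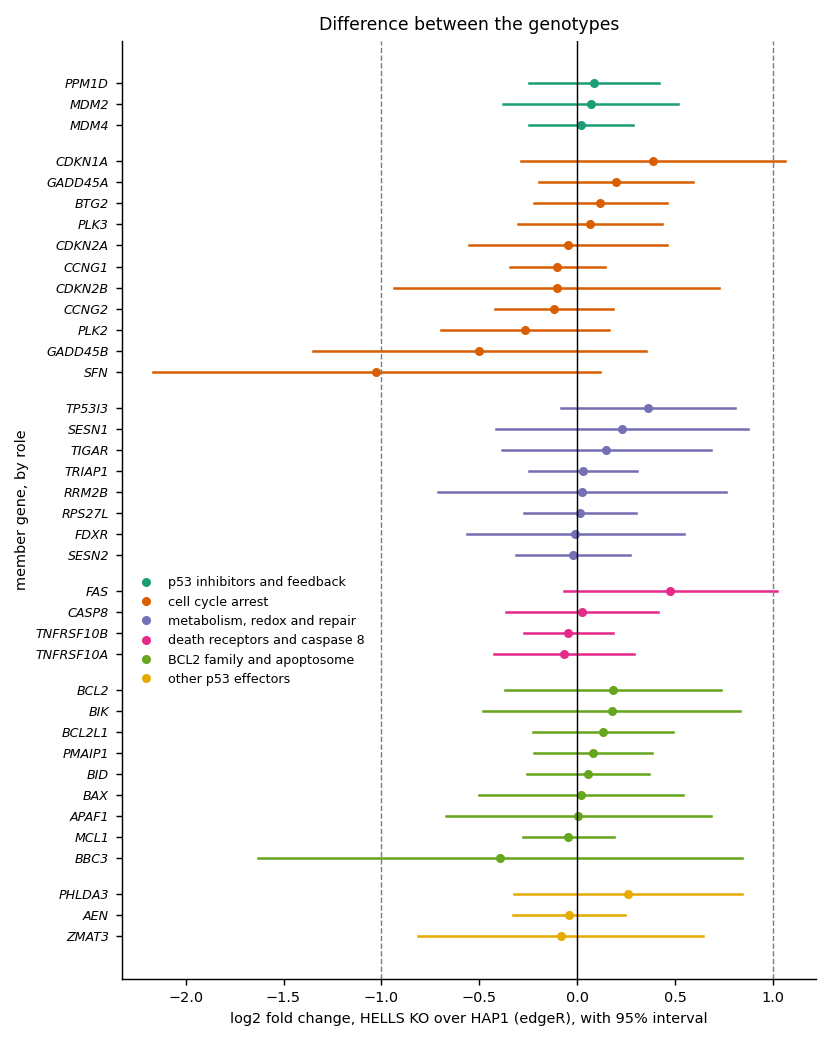
Log2 fold change of HELLS KO over HAP1 for the 38 tested members (edgeR, points) with the 95% interval (lines), grouped and coloured by role. Every interval crosses 0, and the dashed lines mark a log2 fold change of -1 and 1; the widest intervals are those of BBC3 and SFN.

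With the replicate number as a block, 0 members were called, where 3.51% of all genes were, but 5 passed an unadjusted p under 0.05, where 11.6% of all genes did. By edgeR's quasi-likelihood test with the block they were GADD45B (log2 -0.46, adjusted p = 0.106), SFN (-0.97, adjusted p = 0.162), FAS (0.47, adjusted p = 0.245), CDKN1A (0.39, adjusted p = 0.295) and TP53I3 (0.34, adjusted p = 0.335). The 5 were thus divided, with 3 higher and 2 lower in HELLS KO. Within same-numbered pairs, 8 members were higher in HELLS KO in each of the 3 pairs, namely BTG2, PMAIP1, GADD45A, TP53I3, PPM1D, CDKN1A, SESN1 and FAS, where 14.8% of all genes were. In the opposite direction 5 were lower in each pair, namely CCNG1, AEN, GADD45B, CCNG2 and SFN, where 16.3% of all genes were. Both counts stand near those shares of 38 genes, and the pairs were made by replicate number alone.

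FAS was the only member whose 3 HELLS KO libraries all lay above the 3 HAP1 libraries, which 4.99% of all genes did, and 0 members lay wholly below, which 5.09% did. Leaving out a library can only keep or raise both the share of all genes and this count. Without HAP1 replicate 3 it was 16 members (34.2% of all genes), without HELLS KO replicate 3 it was 8 (19.1%), and without HAP1 replicate 2 or without HELLS KO replicate 1 it was 3 each (12.6% and 17.4%). FAS did not overlap over all libraries, so it could not overlap in these settings.

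The genes that hold p53 in check had overlapping ranges in the 2 genotypes. MDM2 was at 87.3, 80.8 and 122.5 CPM in HAP1 replicates 1, 2 and 3 and at 88.05, 100.1 and 116.7 CPM in HELLS KO, with replicate 3 the highest in each genotype and the ranges overlapping. Its log2 fold change was 0.07 (SE 0.19, 95% interval -0.38 to 0.52, adjusted p = 1, edgeR). PPM1D, whose phosphatase WIP1 switches off ATM signalling, was at 60.5, 58.9 and 72.9 CPM in HAP1 and 62.4, 66.8 and 74.8 CPM in HELLS KO. The log2 difference was 0.09 (SE 0.14, 95% interval -0.25 to 0.42, adjusted p = 1, edgeR), and the pair of ranges overlapped. MDM4 differed by 0.02 (SE 0.11). The 3 genes had a median of 0.07.

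Among genes of cell cycle arrest, CDKN1A, which encodes the CDK inhibitor p21, was at 19.6, 21.2 and 12.1 CPM in HAP1 and at 29.5, 22.5 and 16.9 CPM in HELLS KO. HELLS KO was higher in each same-numbered pair, but HELLS KO replicate 3 lay below HAP1 replicates 1 and 2. The log2 fold change was 0.39 (SE 0.29, 95% interval -0.29 to 1.06, adjusted p = 1, edgeR), and its range over the alternatives was 0.16 to 0.56, with a lowest adjusted p of 0.192. GADD45A, a stress sensor that binds PCNA and p21, was at 39.1, 37.3 and 29.4 CPM in HAP1 and at 44.1, 42.1 and 35.3 CPM in HELLS KO. The ranges overlapped, and the log2 difference was 0.20 (SE 0.17, 95% interval -0.20 to 0.59, adjusted p = 1, edgeR). BTG2 was at 92.3, 88.0 and 71.6 CPM in HAP1 and at 97.3, 95.4 and 80.6 CPM in HELLS KO, a log2 difference of 0.12 (SE 0.15, 95% interval -0.22 to 0.46, adjusted p = 1, edgeR). In these 3 genes the HELLS KO value was above the HAP1 value of its own number in every pair, and replicate 3 was the lowest of each genotype.

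SFN and GADD45B stood on the other side. SFN, whose product 14-3-3 sigma holds the G2/M kinase complex in the cytoplasm, had 5.56, 4.37 and 1.96 CPM in HAP1 and 2.96, 1.47 and 1.396 CPM in HELLS KO, from 21 to 79 counts a library. HELLS KO replicate 1 lay above HAP1 replicate 3, so the ranges overlapped. The log2 fold change was -1.03 (SE 0.49, 95% interval -2.17 to 0.11, adjusted p = 0.902, edgeR). Over the alternatives it stayed negative, from -1.46 to -0.66, and its lowest adjusted p was 0.162. GADD45B, a relative of GADD45A that is also induced by NF-kB and TGF-beta, was at 46.0, 47.5 and 21.01 CPM in HAP1 and at 34.3, 29.1 and 17.6 CPM in HELLS KO. Replicate 3 was less than the other libraries in each genotype, and HAP1 replicate 3 lay among the HELLS KO values. The log2 fold change was -0.50 (SE 0.36, 95% interval -1.35 to 0.35, adjusted p = 1, edgeR), with a lowest adjusted p of 0.0606 over the alternatives.

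The remaining arrest genes showed small differences. CCNG1 was at 161.3, 161.8 and 146.3 CPM in HAP1 and at 147.9, 152.7 and 136.9 CPM in HELLS KO, a log2 difference of -0.10 (SE 0.10, 95% interval -0.35 to 0.14, adjusted p = 1, edgeR). Its HELLS KO value was below the HAP1 value in each pair, and the ranges overlapped because HAP1 replicate 3 was low. CCNG2 differed by -0.12 (SE 0.13), the polo-like kinase genes PLK2 and PLK3 by -0.27 (SE 0.18) and 0.07 (SE 0.16), and the CDK inhibitor genes CDKN2A and CDKN2B by -0.05 (SE 0.22) and -0.11 (SE 0.35). Of the 11 arrest genes 4 had a positive and 7 a negative value, with a median of -0.10.

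Among genes of metabolism, redox control and repair, TP53I3 had the largest value. TP53I3 encodes an oxidoreductase linked to reactive oxygen species, and it was at 31.8, 36.0 and 29.3 CPM in HAP1 and at 51.2, 39.6 and 33.8 CPM in HELLS KO. HELLS KO was higher in each pair, while HELLS KO replicate 3 lay below HAP1 replicate 2. The log2 fold change was 0.36 (SE 0.19, 95% interval -0.09 to 0.80, adjusted p = 1, edgeR). SESN2, which encodes a sestrin that restrains mTORC1, was at 96.9, 97.8 and 82.7 CPM in HAP1 and at 90.9, 97.5 and 84.5 CPM in HELLS KO, a log2 difference of -0.02 (SE 0.12, 95% interval -0.31 to 0.27, adjusted p = 1, edgeR). Its relative SESN1 differed by 0.23 (SE 0.27), and the ranges overlapped in both sestrins. RRM2B, the p53-induced subunit of ribonucleotide reductase that supplies nucleotides for repair, differed by 0.02 (SE 0.31), and TIGAR, which diverts glucose from glycolysis, by 0.15 (SE 0.23).

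TRIAP1 was at 59.5, 60.2 and 60.2 CPM in HAP1 and at 65.6, 60.4 and 57.5 CPM in HELLS KO, a log2 difference of 0.03 (SE 0.12, 95% interval -0.25 to 0.30, adjusted p = 1, edgeR). FDXR, the mitochondrial ferredoxin reductase gene, differed by -0.01 (SE 0.24) and RPS27L, a ribosomal protein S27 relative, by 0.01 (SE 0.12). The 8 genes of this role had a median of 0.03, with 6 positive and 2 negative.

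Among death receptor genes FAS had the largest difference and the TRAIL receptors the smallest. FAS, the receptor of Fas ligand, was at 8.72, 7.78 and 9.96 CPM in HAP1 and at 10.3, 10.9 and 15.6 CPM in HELLS KO. The lowest HELLS KO library lay just above the highest HAP1 library, and HELLS KO replicate 3 was well above the other 5. The log2 fold change was 0.48 (SE 0.23, 95% interval -0.07 to 1.02, adjusted p = 0.946, edgeR), between 0.25 and 0.58 over the alternatives with a lowest adjusted p of 0.134. Of its 29313 annotated exon bases, 6.48% overlap a gene on the opposite strand. The ratio of the counts to the FPKM of FAS implies a length of 3688 bases, so this share need not hold for the bases counted. The strand setting of the counting was not given in the sources used here. TNFRSF10B, the TRAIL receptor DR5, was at 151.8, 150.4 and 145.0 CPM in HAP1 and at 137.1, 147.0 and 149.4 CPM in HELLS KO. These ranges overlapped, with a log2 difference of -0.04 (SE 0.10, 95% interval -0.27 to 0.18, adjusted p = 1, edgeR). TNFRSF10A, the receptor DR4, differed by -0.07 (SE 0.15), and CASP8, the caspase that these receptors activate, by 0.02 (SE 0.17).

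In the BCL2 family the p53-induced BH3-only genes gave no common direction. PMAIP1, which encodes NOXA, was at 44.4, 49.2 and 52.8 CPM in HAP1 and at 49.97, 51.0 and 54.0 CPM in HELLS KO, a log2 difference of 0.08 (SE 0.13, 95% interval -0.22 to 0.38, adjusted p = 1, edgeR). BBC3, which encodes PUMA, was at 45.1, 48.7 and 13.1 CPM in HAP1 and at 36.2, 31.0 and 13.9 CPM in HELLS KO. Replicates 1 and 2 were lower in HELLS KO and replicate 3 was not, and replicate 3 was far below the others in each genotype. The log2 fold change was -0.40 (SE 0.53, 95% interval -1.63 to 0.84, adjusted p = 1, edgeR). BAX was at 90.9, 97.0 and 65.7 CPM in HAP1 and at 105.2, 87.9 and 64.0 CPM in HELLS KO, a log2 difference of 0.02 (SE 0.22, 95% interval -0.50 to 0.54, adjusted p = 1, edgeR). The ranges overlapped in all 3 genes. BID and BIK, further pro-apoptotic members, differed by 0.06 (SE 0.13) and 0.18 (SE 0.28).

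The anti-apoptotic genes and the apoptosome gene also overlapped between the genotypes. MCL1 was at 195.2, 183.2 and 196.6 CPM in HAP1 and at 175.5, 195.3 and 185.9 CPM in HELLS KO, a log2 difference of -0.05 (SE 0.10, 95% interval -0.28 to 0.19, adjusted p = 1, edgeR). BCL2 differed by 0.18 (SE 0.24) and BCL2L1, which encodes BCL-XL, by 0.13 (SE 0.15), where 41.3% of the exon bases of BCL2L1 overlap a gene on the opposite strand. APAF1, the scaffold of the apoptosome, differed by 0.00 (SE 0.29). The 9 genes of this role had a median of 0.06 and ran from -0.40 to 0.18.

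Of the other effectors, ZMAT3 was at 30.5, 25.6 and 49.1 CPM in HAP1 and at 24.5, 29.8 and 44.9 CPM in HELLS KO. The replicate 3 libraries were the highest in each genotype, the ranges overlapped, and the log2 difference was -0.08 (SE 0.31, 95% interval -0.81 to 0.64, adjusted p = 1, edgeR). PHLDA3, which encodes an inhibitor of AKT, differed by 0.26 (SE 0.25), and 18.4% of its exon bases overlap a gene on the same strand. AEN differed by -0.04 (SE 0.12).

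Replicate 3 departed from replicates 1 and 2 by more than the genotypes departed from each other. The shift of replicate 3, its log2 CPM minus the mean of replicates 1 and 2, had the same sign in both genotypes in 36 of the 38 members, as in 84.5% of all genes tested. In HAP1 its absolute size exceeded the absolute log2 fold change between genotypes in 33 members. The shift sets 1 library against the mean of 2, and the genotype difference sets 3 against 3, so their precision differs. The share of all genes with the larger shift was not counted. The median absolute shift was 0.378 for the members beside a median absolute genotype difference of 0.0849, and over all genes tested these were 0.389 and 0.103. BBC3 shifted by -1.81 in HAP1 and -1.24 in HELLS KO, GADD45B by -1.14 and -0.82, and CDKN1A by -0.73 and -0.59. In the other direction RRM2B shifted by 0.94 in HAP1 and 0.64 in HELLS KO, and ZMAT3 by 0.80 and 0.72. The canonical transcript of BBC3 has 69.7% GC and that of RRM2B 35.1%. Members with more GC than TNFRSF10A (50.2%) were lower in replicate 3 in both genotypes, and the shifts of TNFRSF10A and of members with less GC had both signs.

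Across the 38 members, the GC content and the shift of replicate 3 had a Pearson r of -0.83 in each genotype, and over 17688 genes with a canonical transcript r was -0.60 in HAP1 and -0.50 in HELLS KO. The points of 1 genotype come from the same 3 libraries and are not independent, so these values are a description. GC content and the genotype difference had an r of -0.25 over the members. The part of GC content or of the labelled batch in any single difference was not tested.

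**Figure D2:**
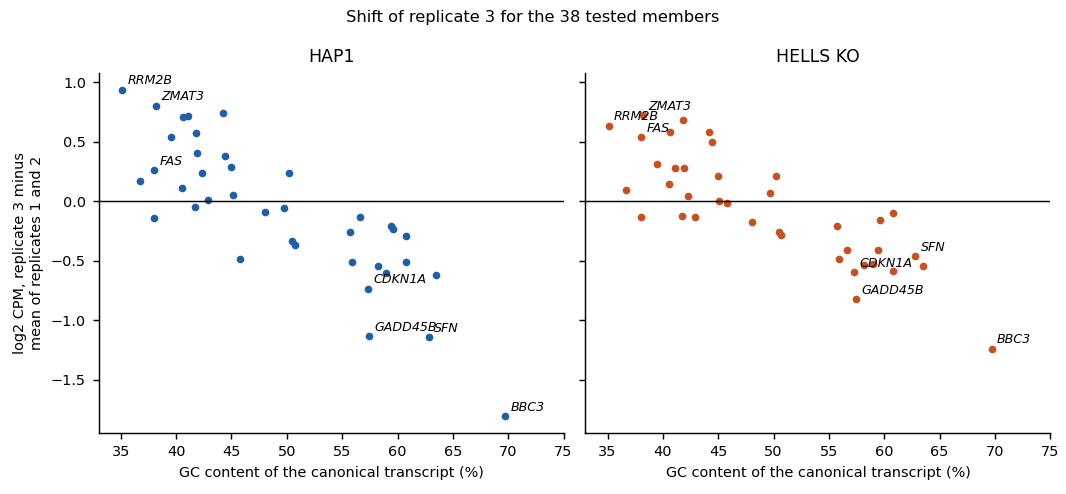
Shift of replicate 3 (log2 CPM minus the mean of replicates 1 and 2) against the GC content of the canonical transcript (%) for the 38 tested members, with HAP1 on the left and HELLS KO on the right. Points fall from RRM2B at the upper left to BBC3 at the lower right in each genotype, with r = -0.83 in both.

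Other genes of the pathway were counted from lists written by known function. Of 21 relatives and regulators of p53 20 were tested, 0 were called, and the median was 0.04. CHEK2, the checkpoint kinase that phosphorylates p53, was higher in all 3 HELLS KO libraries than in all 3 HAP1 libraries, yet by only 0.08 (SE 0.11, adjusted p = 1, edgeR). Of 30 cell cycle and replication genes that p21 signalling is known to lower, all 30 were tested, 0 were called, the median was 0.00 and the values ran only from -0.05 to 0.07.

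Of 45 further p53 targets 41 were tested and 0 were called, with a median of 0.01. EPS8L2, which encodes an actin regulator, had the largest difference of this list, with 379, 427 and 232 counts in HAP1 and 128, 130 and 90 counts in HELLS KO. The 3 HELLS KO libraries lay below the 3 HAP1 libraries, and the log2 fold change was -1.65 (SE 0.51, 95% interval -2.83 to -0.46, adjusted p = 0.313, edgeR). EPS8L2 was called lower with the replicate block (-1.59, adjusted p = 5.56e-04, edgeR), by DESeq2 (-1.66, adjusted p = 0.0222) and without HAP1 replicate 3 (-2.02, adjusted p = 0.0365, edgeR). MR1, an antigen-presenting molecule, differed by -0.96 (SE 0.32, adjusted p = 0.42) and ANKRA2, an ankyrin repeat gene, by -0.26 (SE 0.16, adjusted p = 1, edgeR), both with HELLS KO wholly below HAP1. The list thus held 3 genes wholly below, and 1 wholly above, which was the phosphatase gene PTP4A1 at 0.17 (SE 0.10, adjusted p = 1, edgeR), where 5.09% and 4.99% of all genes lay so.

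Of 35 further apoptosis genes 32 were tested and 0 were called, with a median of 0.03. HRK, a BH3-only gene, was at 154, 141 and 167 counts in HAP1 and at 183, 156 and 271 counts in HELLS KO, without overlap in CPM, and its log2 difference was 0.31 (SE 0.23, adjusted p = 1, edgeR). BOK, a BAX relative, had the largest difference of the list at -0.97 (SE 0.41, adjusted p = 0.733, edgeR). The 5 further CDK inhibitor genes and the 15 genes of the ATF4 stress response, a programme that raises some of the same genes without p53, also held 0 calls, with medians of -0.05 and -0.02.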

How the data were processed

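Directional libraries were made from total RNA. The authors aligned read pairs to GRCh38 with STAR 2.7.3a, discarded duplicates and alignments of quality below 20, and deposited gene counts from featureCounts 2.0.6. They also deposited FPKM values, and these matched values rebuilt from the counts within 0.1% in 100% of cases. The length of each gene in that rebuild came from the ratio of its counts to its FPKM. The match thus shows only that 1 length per gene fits all libraries, and the lengths were not checked. Removing duplicates can lower dense genes: 14 tested members held at least 0.3 counts per base, and CCNG1 the most at 0.845.

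Gene identifiers were matched to GENCODE release 44 (56321 matched). Counts were fitted with edgeR 4.0.16 in R 4.3.3 (filterByExpr, TMM, glmQLFit, glmQLFTest, Benjamini-Hochberg over all 17925 genes), checked on simulated data, with genotype as the only term. SE and 95% intervals came from the F statistic and the total degrees of freedom, which are the residual ones plus those that edgeR adds from all genes. The replicates are biological per the study's methods, and p-values measure only the spread between these samples. Deviations of same-numbered libraries from their genotype means had correlations of 0.42, 0.20 and 0.78 for replicates 1, 2 and 3. The deviations of a genotype sum to 0, so a shift shared by the replicate 3 libraries alone gives positive values for replicates 1 and 2. The values thus do not show that replicates 1 and 2 are paired by number, and differently numbered libraries were not correlated. A fit with the replicate block was an alternative. Other alternatives were DESeq2 1.42.0, upper-quartile scaling, other filters, a batch term, left-out libraries, replicates 1 and 2 only, and limma 3.58.1 on log2(FPKM + 1) and log2(FPKM + 0.1). DESeq2 with the replicate block was added after seeing the data. Pair differences used log2(CPM + 0.5).

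Full values were given for 12 damage readouts, the 5 largest differences, members without overlap and the 3 highest by FPKM. In each list the rule named called genes and at most 3 genes without overlap, taken by the size of the difference. TP53I3, HELLS, BOK, PTP4A1 and the genes given by a difference and SE alone were named outside that rule, after their values were seen. 1 gene of the lists is not reported here. Members and lists were chosen with earlier results of these data known. GC content and p53 matches used the canonical transcript.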

Additional observations from a re-analysis of the deposited data

How the results depend on the processing

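In all 16 alternatives 0 members were called. The number of members at an unadjusted p under 0.05, 0 in the reported fit, was 1 with no filter (5.62% of all genes), 5 with the replicate block (11.6%), 7 with a term for the labelled batch (13.7%), 6 with replicates 1 and 2 only (14.2%), and 4 with DESeq2 and the block (8.78%). When 1 library was left out, it was 4 without HAP1 replicate 3 (12.6%) and 0 to 1 in the other fits (5.19% to 6.67%). The number without overlap, 1 over all libraries, was 1 to 16 with 1 library left out (12.2% to 34.2% of all genes). With replicates 1 and 2 only it was 23 (43.4% of all genes). This number can only stay or rise with fewer libraries. The number of called genes in the pathway lists, 0 as reported, was 1 with DESeq2, with no filter, with the replicate block, with the batch term, with replicates 1 and 2 only and with DESeq2 and the block, and 0 to 1 with 1 library left out; the gene was EPS8L2, called without HAP1 replicate 3. The cause of the moves in the other counts was not tested. Levels kept 38 members at 1 FPKM or more without replicate 3. Over the alternatives 20 of the 38 members, none of them called, took both signs of the log2 fold change; among those given in full, the sign turned in 3 for MDM2 and SESN2, in 2 for BAX and ZMAT3 and in 1 for TRIAP1. SFN rests on 21 to 79 counts a library, and the 4 untested members had too few counts to pass the filter of the reported fit.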
